A study of Mus musculus with 6 samples.

Results

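The genes described here are those of MHC class II antigen presentation and its closest partners, given by name: Cd74, H2-Aa, H2-Ab1, H2-Eb1, H2-DMa, H2-DMb1, Ciita, Cd80 and Cd86. All 9 had a column in the deposited table of 17546 genes. Of these, 7 had enough counts for the test across all genes, and H2-DMb1 and Cd86 did not. The question was how transcripts of this pathway stand in group 2 innate lymphoid cells (ILC2s) of the lung, and how they compare after chemical activation of the mechanosensitive channel Piezo1.

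MHC class II molecules are pairs of an alpha and a beta chain that display peptides on the cell surface to the receptors of CD4+ T cells. In the mouse the H2-Aa and H2-Ab1 products form the A molecule, and H2-Eb1 encodes the beta chain of the E molecule. New pairs are held by the invariant chain, the product of Cd74, until proteases trim it away, and the H2-DM dimer, made from H2-DMa and H2-DMb1, then exchanges the remaining piece for a peptide. Ciita encodes the co-activator that switches these genes on, and CD80 and CD86 give the second signal to the T cell through CD28. ILC2s carry no antigen receptor of their own, and they are known to be able to display class II molecules to T cells.

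The ILC2s came from lungs of BALB/c mice given recombinant IL-33 intranasally, in 3 doses of 1 µg. In both groups they were then cultured with IL-2 and IL-7, each at 10 ng/mL. The control libraries, DMSO 1, 2 and 3, received the solvent, and the libraries Yoda1 4, 5 and 6 received 10 µM Yoda1, a small molecule that opens Piezo1, for 24 h. The sample labels call the control DMSO, whereas the design text and the table's own treatment column call it PBS. Whether the libraries within a group represent different animals or cultures is not stated in the labels. A p-value here therefore measures only how far these libraries spread, and that spread may be technical. DMSO 2 and 3 share a library number in the labels, as do Yoda1 4 and 5, and each of these pairs may come from 1 sample.

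Library totals ran from 14214048 to 31627519 counts, and 3 counts, the most that a count of 0 allows, correspond to between 0.0947 and 0.212 CPM (counting error only). CPM is the usual depth-scaled unit of RNA-seq, each count relative to the library's total over tested genes, here with TMM (trimmed mean of M values) scaling. Of the 10 ILC2 markers listed, all were tested. Gata3, Il1rl1 and Il5 averaged 963, 576 and 5721 CPM with DMSO, whereas Thy1 averaged 2.08 CPM. In edgeR 0 were called higher and 2 lower with Yoda1, against 0.57% and 0.923% of all tested genes. These were Icos, given below, and Il2ra, from 1160 to 729 CPM (Benjamini-Hochberg adjusted p = 0.00707). Il2ra stayed past the threshold in 3 of 6 fits that left out a library. It did not pass when libraries sharing a label number were summed (edgeR adjusted p = 0.167). Among T cell markers, Cd3e averaged 2.37 CPM and Cd3g 31.5 CPM, above Cd74. With Yoda1 they averaged 0.811 and 24.1 CPM. Both were lower without overlap, as were Cd74 and 12% of all tested genes, and short of the threshold. Cd3e had only 45, 61 and 38 counts with DMSO and 12, 6 and 22 with Yoda1. The part of Cd3e and Cd3g in the Cd74 difference was not tested. DMSO 2 and 3 stood apart through the club cell gene Scgb1a1, at 301 and 295 CPM against 0 in DMSO 1 and at most 0.0597 CPM with Yoda1. Lung epithelium, macrophages, dendritic cells and B cells can carry class II, and in a bulk library fewer cells of a type and less RNA per cell cannot be told apart.

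Class II genes share a promoter module in which an X element, bound by the RFX complex and CREB, stands a fixed distance before a Y element, bound by NF-Y, and CIITA docks on the assembled complex. RefSeq promoter windows (GRCm38.p6, from 250 bases before to 50 bases after each start) were matched by symbol for 5 of the 9 members. The stretches below are shown because they hold letters of this module in 3 members whose levels differ widely. Capitals mark the letters searched for within the X element (GATGATG or TGACGTCA) and then for the Y element (TGATTGG). The X letters need not span the whole X element, and bases outside the capitals may belong to it. The letters searched were chosen after these windows had been read.
H2-Aa: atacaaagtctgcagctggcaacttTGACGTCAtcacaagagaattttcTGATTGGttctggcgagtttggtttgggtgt
H2-Eb1: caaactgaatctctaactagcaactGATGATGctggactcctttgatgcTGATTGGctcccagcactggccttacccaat
H2-DMb1: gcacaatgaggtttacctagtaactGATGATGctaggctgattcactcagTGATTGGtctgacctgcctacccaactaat

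The H2-Aa stretch lies at chr17:34287843-34287922 on the minus strand, that of H2-Eb1 at chr17:34305757-34305836 and that of H2-DMb1 at chr17:34153078-34153157, both on the plus strand. The X letters begin 74, 85 and 88 bases before the RefSeq start of H2-Aa, H2-Eb1 and H2-DMb1. Between them and the Y letters lie 16, 17 and 18 bases. Searched on both strands, the Y letters occur in 7.82% of 32851 promoter windows, GATGATG in 3.48% and TGACGTCA in 1.79%. The X letters followed by the Y letters after 10 to 30 bases occur in 15 windows, 0.0457% of all. H2-DMb2, a near copy of H2-DMb1, also has the pair, whereas the windows of H2-Oa and H2-Ob hold the Y letters alone, and those of H2-DMa (2 windows) and Cd80 hold none of the letters. A match describes letters and is not evidence of binding. The paired letters were present in H2-DMb1, which had almost no counts, as well as in H2-Aa and H2-Eb1.

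None of the 7 tested members passed the threshold over all genes. Cd74 and H2-Aa were lower in every Yoda1 library than in any DMSO library, and they were the only members whose groups did not overlap. The beta chain gene H2-Ab1, the most abundant member, kept overlapping levels, as did H2-Eb1 and H2-DMa. The other members were scarce in both groups. In edgeR (quasi-likelihood, Benjamini-Hochberg adjusted p under 0.05 over 13325 genes), 0.57% of genes were called higher with Yoda1 and 0.923% lower. Among the members edgeR and limma voom called 0 and DESeq2 called 1, Cd74. At an unadjusted p under 0.05 in edgeR, 2 of the 7 tested members were lower and 0 were higher, where 7.11% of all tested genes were lower and 7.39% higher. Groups without overlap were lower for 2 members and higher for 0, where 12% of all tested genes were lower and 10.6% higher in this way. The median log2 change was -0.59 over the 7 tested members and 0.01 over all tested genes. That median of the members is the value of Cd80, which had only 12 to 51 counts per library. Its sign changed without DMSO 3 (0.37), so the median does not describe a shift of the members as a set.

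**Figure D1:**
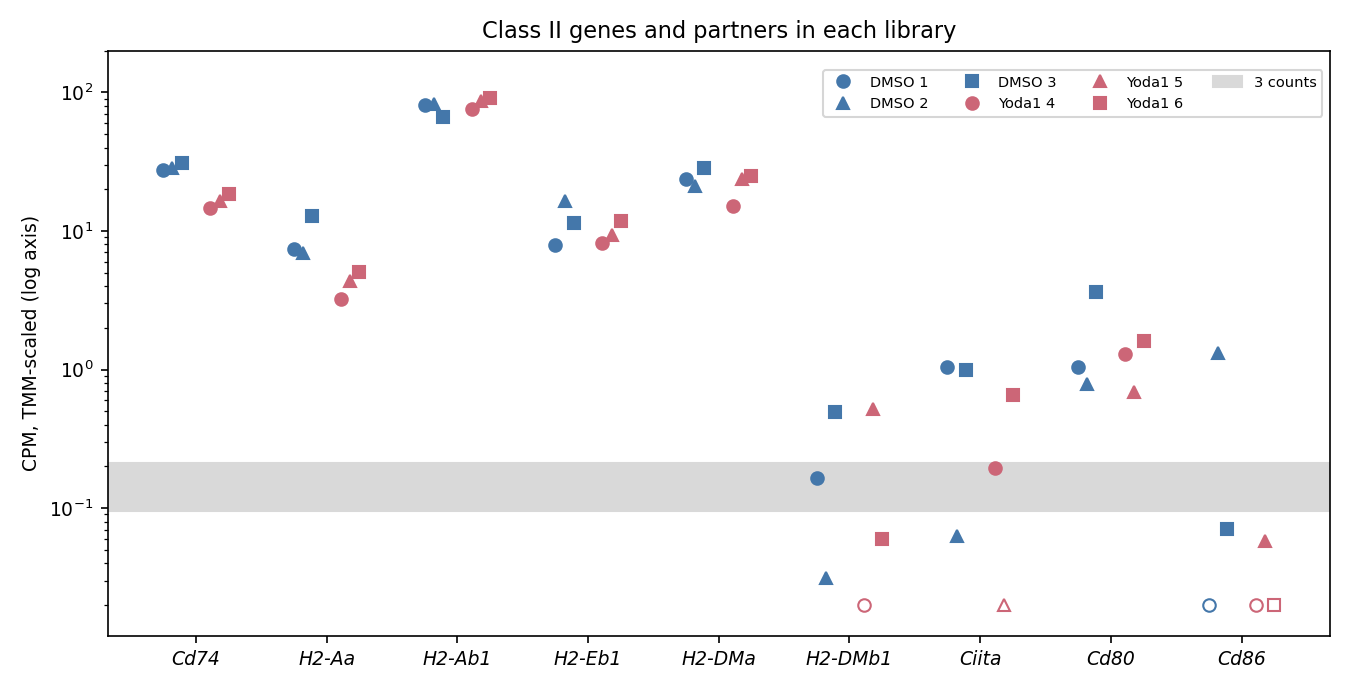
CPM (log axis) of each member in the 3 DMSO libraries (blue) and the 3 Yoda1 libraries (red); the grey band spans 3 counts in the deepest and the shallowest library, and open symbols at the bottom are counts of 0. Cd74 and H2-Aa are lower in all 3 Yoda1 libraries, H2-Ab1 lies between 66.0 and 91.2 CPM throughout, and H2-DMb1, Ciita and Cd86 reach into or below the band.

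Cd74, the invariant chain gene, measured 27.5 CPM in DMSO 1, 28.7 in DMSO 2 and 31.1 in DMSO 3, against 14.6, 16.5 and 18.4 CPM in Yoda1 4, 5 and 6. The lowest DMSO library was thus above the highest Yoda1 library, and the spread within each group was narrow. Group means were 29.1 ± 1.8 and 16.5 ± 1.9 CPM (SD, n = 3 per group). The log2 change was -0.82 (SE 0.20, 95% interval -1.27 to -0.36), or 56.8% of the DMSO level. It missed the threshold over all genes in edgeR (Benjamini-Hochberg adjusted p = 0.0944), nor in limma voom (adjusted p = 0.0815), whereas DESeq2 called it (adjusted p = 0.00571), as it did 3.43% of the genes it tested as lower and 2.92% as higher. Voom called 0.908% of all genes higher and 1.34% lower. Leaving out each library in turn gave log2 changes from -0.90 to -0.74 and edgeR adjusted p from 0.0837 to 0.289. Against DMSO 1 alone the log2 change was -0.75. That library had 0 counts of Scgb1a1 but 15.2 CPM of the surfactant gene Sftpc and 3.75 CPM of Sftpa1, and the part of epithelial RNA was not tested. The gene lies on chromosome 18 at 60803848 to 60812652 (GRCm38, plus strand) and overlaps a microRNA gene, Mir5107.

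The alpha and beta chain genes of the A molecule are given in turn. H2-Aa, the alpha chain gene, measured 7.45, 6.97 and 12.8 CPM in the DMSO libraries, in order of their numbers, and 3.23, 4.39 and 5.07 CPM in the Yoda1 libraries. DMSO 3 was the highest, and no Yoda1 library reached the lowest DMSO library. These values rest on 537 counts over the DMSO libraries and 211 over the Yoda1 libraries. The log2 change was -1.10 (SE 0.38, 95% interval -1.97 to -0.23), short of the threshold over all genes in edgeR (Benjamini-Hochberg adjusted p = 0.23). Without DMSO 3 it was -0.78, and without DMSO 2 -1.26.

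H2-Ab1, the beta chain gene, was at 81.5, 82.1 and 66.0 CPM in the DMSO libraries and at 75.4, 86.6 and 91.2 CPM in the Yoda1 libraries. DMSO 3, where H2-Aa was highest, had the lowest H2-Ab1 level, and the groups overlapped. The log2 change was 0.14 (SE 0.15) with a 95% interval from -0.19 to 0.48 (edgeR, Benjamini-Hochberg adjusted p = 0.72). With 933 to 2601 counts per library this was the best measured member, and its interval leaves out a fall of the size fitted for Cd74.

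H2-Eb1, the beta chain gene of the E molecule, was at 7.95, 16.4 and 11.5 CPM with DMSO and at 8.20, 9.29 and 11.9 CPM with Yoda1. The DMSO libraries spread more widely than the Yoda1 libraries and enclosed them from below and above. Its log2 change of -0.29 (SE 0.34, 95% interval -1.05 to 0.48) did not pass (edgeR, Benjamini-Hochberg adjusted p = 0.75), and without DMSO 2, the highest library, it was 0.01. H2-Ea, the matching alpha chain, had 22, 7 and 32 counts in DMSO 1, 2 and 3 and 6, 0 and 9 counts in Yoda1 4, 5 and 6, too few for the test. C57BL/6 mice, the strain of the reference genome, do not make this chain, whereas BALB/c mice do.

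H2-Ab1, H2-Aa and H2-Eb1 lie close together on chromosome 17, at 34257689 to 34269419, 34282744 to 34287823 and 34305867 to 34316674 (GRCm38). H2-Aa is on the minus strand and the others are on the plus strand. H2-Eb1 overlaps an antisense gene, Gm20513, and since the sources used here do not give the strand setting of the counting, reads from such a pair cannot be told apart. Class II chains are among the most polymorphic mouse genes, and BALB/c carries other alleles than the reference strain. How far this lowered the counts of each chain was not tested; it concerns both groups.

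Ratios between members within a library do not depend on the scaling of libraries. H2-Ab1 was taken as the denominator after its steady level had been seen. For every 100 counts of H2-Ab1 there were 33.8, 34.9 and 47.1 counts of Cd74 in the DMSO libraries against 19.4, 19.1 and 20.2 in the Yoda1 libraries. The Yoda1 libraries were nearly alike in this ratio and all lay below the DMSO libraries, with a log2 difference of -0.97. H2-Aa had 9.15, 8.50 and 19.4 counts per 100 of H2-Ab1 with DMSO and 4.28, 5.06 and 5.56 with Yoda1, a log2 difference of -1.22, again without overlap. Because the denominator was chosen this way, the ratios restate the levels above and are given as a description, without a test. The ratios of H2-Eb1 and H2-DMa to H2-Ab1, and of H2-Aa to Cd74, overlapped between groups. H2-Aa stood at 27.1, 24.3 and 41.2 counts per 100 of Cd74 with DMSO and at 22.0, 26.6 and 27.6 with Yoda1.

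**Figure D2:**
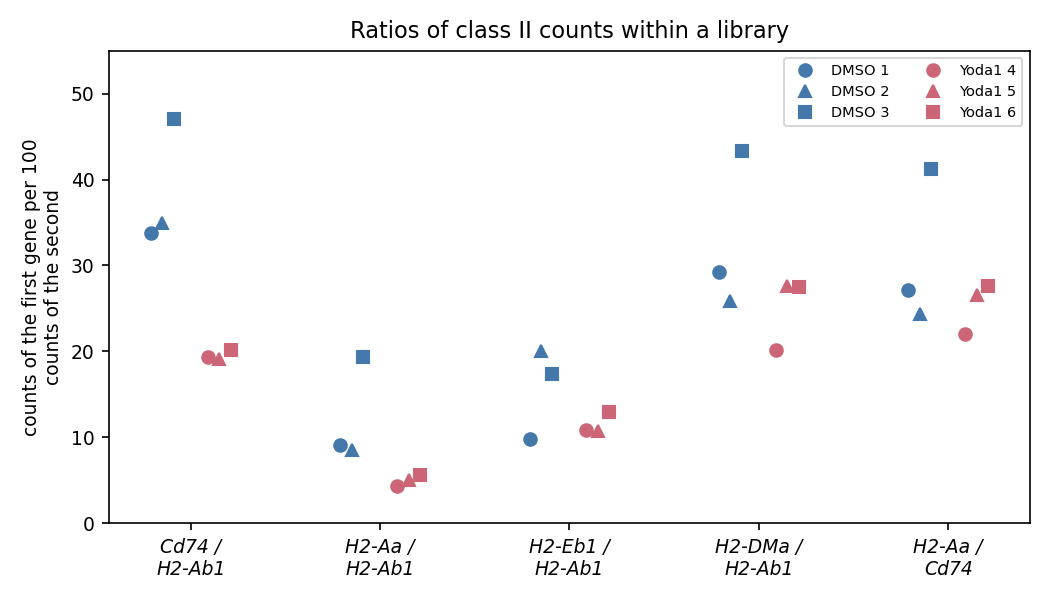
Counts of 1 member per 100 counts of another within each library, DMSO in blue and Yoda1 in red. Cd74 per H2-Ab1 lies at 19.1 to 20.2 in the Yoda1 libraries and at 33.8 to 47.1 in the DMSO libraries, whereas H2-Aa per Cd74 overlaps between the groups.

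Levels of different genes were compared per kilobase of merged exons. With DMSO, H2-Ab1 led at 29.8 ± 3.5 CPM per kilobase, followed by Cd74 at 17.3 ± 1.1, H2-DMa at 7.12 ± 1.08, H2-Eb1 at 6.14 ± 2.18 and H2-Aa at 2.39 ± 0.85 (SD, n = 3). The ranges of H2-DMa and H2-Eb1 overlapped, and the other neighbours among these 5 did not. Cd80 followed at 0.490 ± 0.421 CPM per kilobase, and H2-DMb1, Cd86 and Ciita averaged 0.137, 0.127 and 0.0735, with ranges that overlapped. The order of the 6 highest was the same with Yoda1, where Cd74 was at 9.83 ± 1.11 and H2-Aa at 1.11 ± 0.25 CPM per kilobase. H2-Ab1 exceeded H2-Aa, with which it pairs, 12.5-fold per kilobase with DMSO and 29.5-fold with Yoda1. With the longest transcript as the length, the DMSO value was 22.4-fold. H2-Ab1, Cd74 and H2-DMa were then at 63.1, 20.6 and 12.2 CPM per kilobase with DMSO. BALB/c alleles that differ from the reference may lower the counts of these chains unequally, and their part in the levels was not tested.

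**Figure D3:**
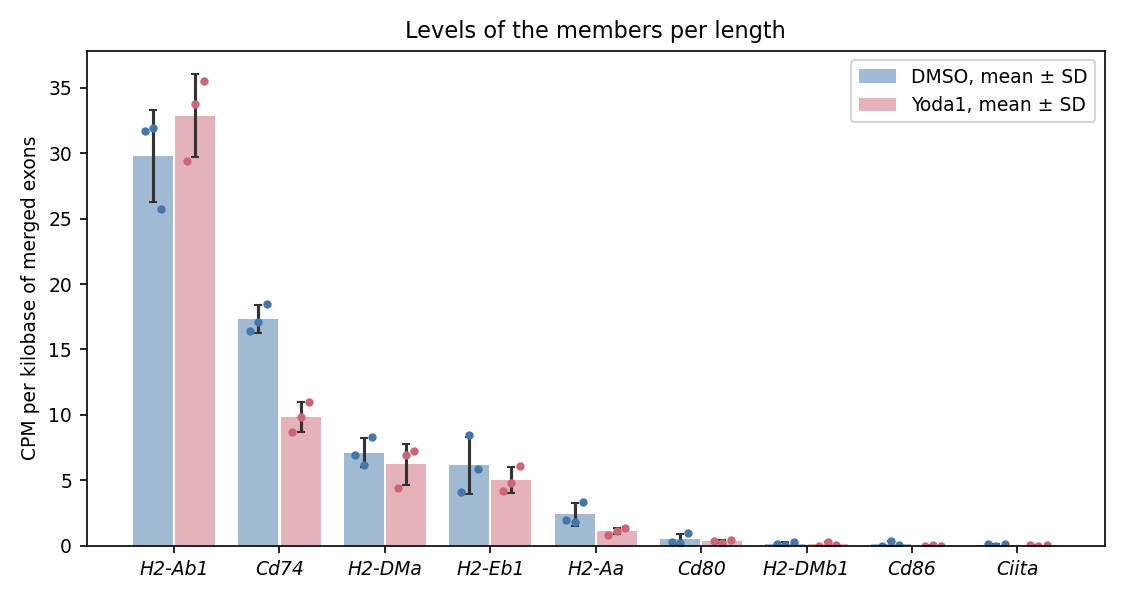
Mean CPM per kilobase of merged exons with SD (bars, n = 3 libraries per group) and each library (points), DMSO in blue and Yoda1 in red. H2-Ab1 is highest in both groups at 29.8 and 32.9, Cd74 is second, and Cd80, H2-DMb1, Cd86 and Ciita are close to 0.

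The chains of the peptide editor had unequal counts. H2-DMa was at 23.8, 21.2 and 28.6 CPM with DMSO and at 15.2, 23.9 and 25.1 CPM with Yoda1. Yoda1 4 was the lowest, and the other Yoda1 libraries lay among the DMSO libraries. The log2 change was -0.20 (SE 0.25, 95% interval -0.77 to 0.38), which did not pass (edgeR, Benjamini-Hochberg adjusted p = 0.78). It was close to 0 without Yoda1 4 (-0.0018), -0.08 without DMSO 3 and -0.32 without Yoda1 6. H2-DMb1, whose product H2-DMa needs as its partner, had 3, 1 and 7 counts in DMSO 1, 2 and 3 and 0, 9 and 1 counts in Yoda1 4, 5 and 6. That is under 10 counts in all 6 libraries and at most 3 counts in 4 of them, so it lay near the detection floor and its change could not be measured at this depth. Its near copy H2-DMb2 had 0, 1 and 14 counts with DMSO and 0, 7 and 0 with Yoda1, and reads could be split between the copies. H2-DMa, at 34119541 to 34139101 on chromosome 17, overlaps Brd2 on the opposite strand and a processed pseudogene, Gm20493, so part of its counts may belong to them. H2-DMb1 lies at 34153072 to 34160230 in GENCODE, whose gene begins before the RefSeq start used above, so the stretch shown falls inside the GENCODE gene.

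Counts were also unequal for the chains of H2-DO, the dimer that restrains H2-DM. Its alpha chain gene H2-Oa was at 11.5, 12.7 and 20.3 CPM with DMSO and at 24.2, 14.1 and 11.9 CPM with Yoda1. Yoda1 4 was the highest and DMSO 1 the lowest, and the groups overlapped. Its beta chain gene H2-Ob had 0, 21 and 1 counts with DMSO and 0, 1 and 0 counts with Yoda1, so almost all of them were in DMSO 2.

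Ciita, the master co-activator of the pathway, was scarce. It had 19, 2 and 14 counts in DMSO 1, 2 and 3 and 3, 0 and 11 counts in Yoda1 4, 5 and 6, or at most 1.05 CPM. In 3 of the 6 libraries it was at or below 3 counts, and DMSO 2, the deepest library, had only 2. The groups overlapped, and the log2 change of -1.26 (SE 1.35) had a 95% interval from -4.32 to 1.80 (edgeR, Benjamini-Hochberg adjusted p = 0.73), so neither a large fall nor a rise was detectable at this depth. Leaving out 1 library moved it to between -2.79 (without Yoda1 6) and -0.69 (without Yoda1 5); it was -0.84 without DMSO 1. Ciita lies on chromosome 16 at 10480059 to 10528418 and overlaps Dexi on the opposite strand.

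The factors that CIITA works with were all present. Of 12 genes of the class II transcription complex, 0 passed in edgeR, DESeq2 or voom. Of all genes tested, these called 0.57%, 2.92% and 0.908% higher and 0.923%, 3.43% and 1.34% lower. A single gene, Zxdc, was higher at an unadjusted p under 0.05 in edgeR, as were 7.39% of all tested genes. The median log2 change of the 12 genes was 0.06. Zxdc, a zinc finger partner of CIITA, was at 25.3 ± 1.0 and 34.3 ± 3.4 CPM. The RFX subunit genes Rfx5, Rfxap and Rfxank averaged 20.5, 54.9 and 27.9 CPM with DMSO and 28.5, 66.7 and 33.3 CPM with Yoda1, and each overlapped between groups.

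Among 19 tested genes that control Ciita or act beside it, 0 rose and 2 fell in edgeR, against 0.57% and 0.923% of all tested genes. Their median log2 change was -0.04. DESeq2 called 3 higher and 4 lower, against 2.92% and 3.43% of the genes it tested. Voom called 0 and 3, against 0.908% and 1.34% of all genes. With the filter of 10 CPM, edgeR called 1 and 4 of 18 genes, where it called 158 and 290 of all 8518. Without adjustment (p under 0.05) edgeR had 5 higher and 4 lower, against 7.39% and 7.11% of all tested genes. Those that fell were Irf4, a lymphocyte transcription factor, from 52.1 ± 6.8 to 14.4 ± 6.8 CPM, and Il10ra, a chain of the IL-10 receptor, from 126 ± 5 to 68.1 ± 14.7 CPM (edgeR, Benjamini-Hochberg adjusted p = 0.0493 and 0.0479). Each stayed past the threshold in 1 of 6 fits that left out a library, for both the fit without Yoda1 6, and neither passed without the filter on low counts. The receptor chains for interferon gamma, the main inducer of Ciita, were at 106 ± 14 and 144 ± 7 CPM (Ifngr1) and 54.7 ± 7.4 and 83.0 ± 4.8 CPM (Ifngr2). They did not pass in edgeR (Benjamini-Hochberg adjusted p = 0.15 and 0.0993) but did in DESeq2 (0.024 and 0.00446). Their groups did not overlap, being higher with Yoda1. In this list 3 genes were higher and 6 lower without overlap, against 10.6% and 12% of all tested genes. Stat6 was the other higher gene, at 211 ± 28 and 317 ± 44 CPM. Among the lower were Prdm1, at 58.4 ± 11.6 and 20.1 ± 11.7 CPM, and Socs1, at 767 ± 63 and 577 ± 58 CPM. Stat6, Prdm1 and Socs1 did not pass in edgeR.

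The costimulatory ligands were at the low end. Cd80 had 19, 25 and 51 counts in the DMSO libraries against 20, 12 and 27 in the Yoda1 libraries, which gave 1.05, 0.789 and 3.61 CPM against 1.29, 0.692 and 1.61 CPM. DMSO 3 was the highest and the other libraries of both groups were intermingled. The log2 change of -0.59 (SE 0.78, 95% interval -2.37 to 1.20) did not pass (edgeR, Benjamini-Hochberg adjusted p = 0.79), and without DMSO 3 it was 0.37. Cd86 had 42 counts in DMSO 2, 1 each in DMSO 3 and Yoda1 5, and 0 in DMSO 1, Yoda1 4 and Yoda1 6. It lay at or below 3 counts in 5 of 6 libraries, and its only clear signal, 1.33 CPM, came from 1 library. Both genes are on chromosome 16, Cd80 at 38455561 to 38496335 (plus strand) and Cd86 at 36603869 to 36666081 (minus strand).

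Of 13 tested genes in the list of other B7 and CD28 family members and related ligands, 1 rose and 1 fell, against 0.57% and 0.923% of all tested genes, with a median log2 change of 0.46. Pdcd1, the receptor PD-1, rose from 430 ± 14 to 884 ± 51 CPM, and Icos fell from 861 ± 11 to 463 ± 35 CPM (edgeR, Benjamini-Hochberg adjusted p = 0.00141 and 0.00423). Both are receptors and not ligands. Pdcd1 stayed past the threshold in all 6 fits that left out a library, and Icos in 5, with an adjusted p of 0.0522 without DMSO 3. Neither passed when the counts of libraries sharing a label number were added together (edgeR adjusted p = 0.0885 for Pdcd1 and 0.134 for Icos). With the label suffix as a term neither passed (edgeR adjusted p = 0.145 for both). That suffix is 0 for DMSO 1 and 2 only, so the term sets Yoda1 against DMSO 3 alone. The ligands of these receptors were at lower levels: Cd274 (PD-L1) at 8.02 ± 3.51 and 9.58 ± 4.22 CPM and Icosl at 13.0 ± 1.8 and 17.9 ± 2.2 CPM, and neither passed.

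Among the other genes of the class II pathway, 16 of 22 listed had a column and 13 were tested. Of these 1 rose, 0 fell and 12 did not pass in edgeR, against 0.57% and 0.923% of all tested genes called, and the median log2 change was 0.15. The one that rose was Cd82, a tetraspanin of class II compartments, with 441, 428 and 412 CPM in the DMSO libraries against 599, 595 and 623 CPM in the Yoda1 libraries. The log2 difference came to 0.50 (SE 0.08; Benjamini-Hochberg adjusted p = 0.0217 in edgeR), and it stayed past the threshold in 2 of 6 fits that left out a library, those without Yoda1 4 and without Yoda1 6. Without adjustment (p under 0.05) 1 was higher and 2 were lower in edgeR, against 7.39% and 7.11% of all genes. DESeq2 likewise called 1 and 2, against 2.92% and 3.43% of the genes it tested.

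Those 2 lower genes encode proteases that act on the invariant chain or on antigen in endosomes. Ctss, cathepsin S, which cuts the last part of the invariant chain, was at 29.97, 28.9 and 30.6 CPM with DMSO and at 13.8, 18.6 and 20.3 CPM with Yoda1. Lgmn, legumain, was at 44.98, 48.8 and 53.8 CPM with DMSO and at 32.6, 26.8 and 33.7 CPM with Yoda1. Neither gene's groups overlapped. Their log2 changes were -0.76 (SE 0.22) and -0.67 (SE 0.18), short of the threshold in edgeR (Benjamini-Hochberg adjusted p = 0.14 and 0.11) but passed in DESeq2 (adjusted p = 0.0266 and 0.0104). Of the 13 tested genes in this list, 2 were lower without overlap and 3 higher, against 12% and 10.6% of all tested genes. The 3 higher were Cd82 and the cathepsin genes Ctsb, at 362.3 ± 11.0 and 414.5 ± 41.5 CPM, and Ctsd, at 899 ± 19 and 995 ± 51 CPM. The thiol reductase gene Ifi30, which opens disulfide bonds of antigens, was at 29.8 ± 7.1 and 28.7 ± 5.2 CPM. Cd83, which holds class II molecules at the surface, had 1, 60 and 1 counts with DMSO and 104, 24 and 51 with Yoda1, a log2 change of 2.38 with a 95% interval from -0.38 to 5.14.

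**Figure D4:**
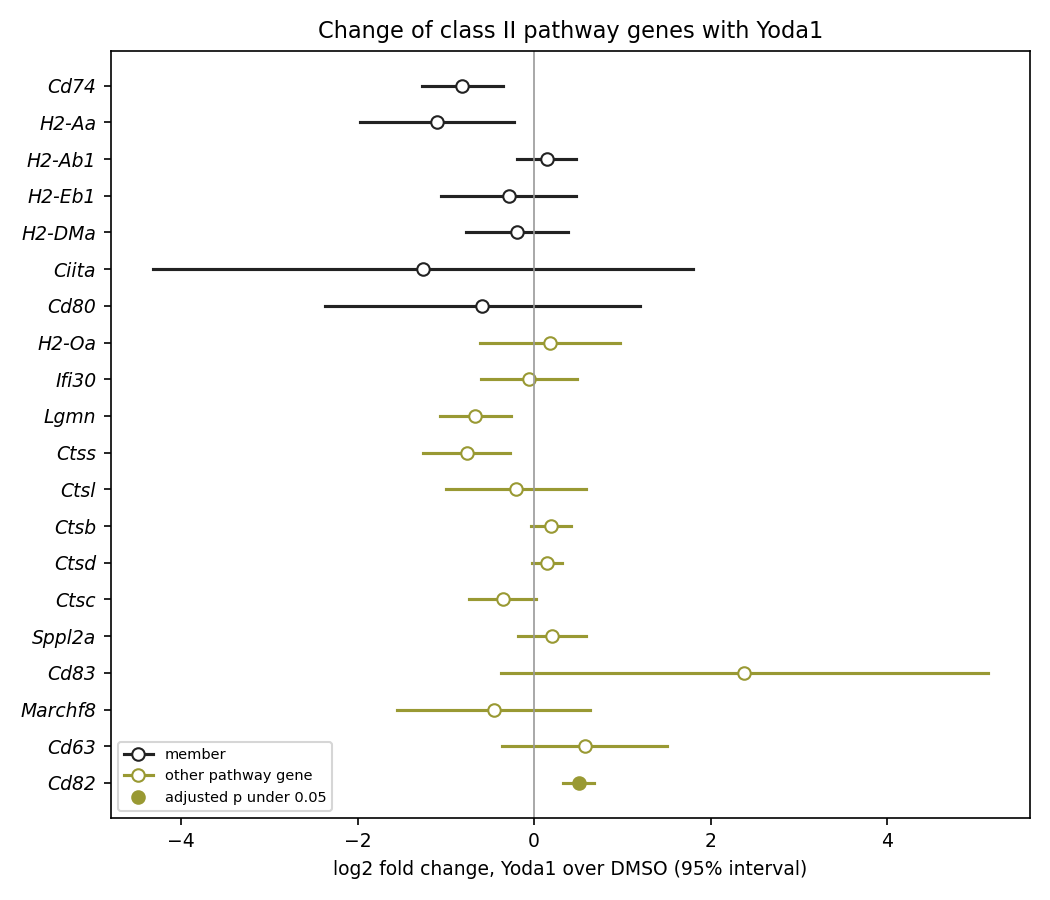
Log2 fold change of Yoda1 over DMSO with its 95% interval for the 7 tested members (black) and 13 other pathway genes (olive); filled points passed an adjusted p of 0.05 in edgeR. Only Cd82 is filled, at 0.50. The intervals of Cd74, H2-Aa, Lgmn and Ctss lie below 0, and those of Ciita and Cd83 are the widest.

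CD74 also serves at the surface as a receptor for the cytokine MIF. Mif was at 371, 347 and 368 CPM with DMSO and at 255, 299 and 307 CPM with Yoda1, without overlap, and did not pass in edgeR (Benjamini-Hochberg adjusted p = 0.17) but did in DESeq2 (0.0394). Ddt, which encodes a relative of MIF that also binds CD74, rose from 75.4 ± 2.6 to 130 ± 21 CPM (adjusted p = 0.0417 in edgeR), and stayed past the threshold in 1 of 6 fits that left out a library, that without Yoda1 4, and not without the filter on low counts. Cd44, the signalling partner of CD74, was at 275 ± 17 and 393 ± 58 CPM. It did not pass in edgeR (Benjamini-Hochberg adjusted p = 0.0835), but did in DESeq2 (0.00258) and with the filter of 10 CPM in 3 libraries (0.0379). Of the 4 tested genes of this list 1 rose and 0 fell, against 0.57% and 0.923% of all tested genes, and the median log2 change was 0.65. Without overlap, 1 was lower (Mif) and 3 were higher (Ddt, Cd44 and Cxcr4), against 12% and 10.6% of all tested genes. Before adjustment (p under 0.05) 2 were higher and 1 lower in edgeR, against 7.39% and 7.11% of all genes. DESeq2 called the same numbers, 2 and 1, against 2.92% and 3.43% of the genes it tested.

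The profiles over the 6 libraries were compared by the root mean square difference of log2 CPM, each gene centred on its own mean. The genes closest to Cd74 were the nuclear import gene Kpna2, at 0.03, the histone gene H2ax, at 0.05, and Cldnd1, at 0.06. Among members the closest to Cd74 was H2-Aa, at 0.28, followed by H2-DMa at 0.35, H2-Eb1 at 0.41 and H2-Ab1 at 0.50. Among all 10942 genes ranked by closeness to Cd74, these stood at ranks 480, 1182, 2321 and 4444. By closeness to H2-Aa, Cd74 stood at rank 25. For H2-Ab1 the closest genes were Sgcb, Tmem192 and Med11, at 0.04, 0.05 and 0.05, for H2-Aa they were Slc4a8, Pros1 and Cpne2, at 0.13, 0.21 and 0.22, and for H2-Eb1 Slc35a3, BC037032 and Jrk, at 0.07, 0.09 and 0.12. No member was among the 3 nearest genes of another. All these distances share the same 6 libraries and their 2 groups.

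Markers of other cells that carry class II were read beside these values. Of 10 lung epithelial markers, 9 had a column, and their summed level was 91.3 to 411 CPM in the DMSO libraries and 55.6 to 77.9 CPM in the Yoda1 libraries. Epcam made up most of that sum outside DMSO 2 and 3, at 65.9 ± 1.4 and 59.4 ± 11.5 CPM. The surfactant gene Sftpa1 was at 3.75, 21.3 and 21.7 CPM with DMSO and at 0, 0.923 and 0.0597 CPM with Yoda1, and Sftpc was at 15.2 CPM in DMSO 1 and at most 0.568 CPM elsewhere. Sftpd and Cdh1 were at 0 in DMSO 1 and in all 3 Yoda1 libraries. The summed level was higher in every DMSO library, as Cd74 and H2-Aa were, while Epcam, Krt18 and Lamp3 overlapped between groups. The part of these markers in the Cd74 and H2-Aa differences was not tested.

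Macrophage and monocyte markers, with 7 of 10 in the table, summed to 11.6 to 14.9 CPM with DMSO and 18.9 to 24.5 CPM with Yoda1, with most of the sum from Cd68 and Lyz2. The F4/80 gene Adgre1 was at 0.0552, 1.67 and 1.27 CPM with DMSO and at 0 in the Yoda1 libraries, Csf1r stayed at or below 0.331 CPM, and Lyz2 was at 2.66 ± 1.97 and 9.16 ± 2.54 CPM. Ly6c2 was at 1.15 ± 0.19 and 0.336 ± 0.196 CPM, lower without overlap. The part of these markers was not tested. Dendritic cell markers, 4 of 7, summed to 73.7 to 87.7 CPM and 73.7 to 77.4 CPM, most of it from Xcr1, while Zbtb46 was at most 1.23 CPM. Ccr7 was at 17.7, 15.5 and 19.2 CPM with DMSO and at 4.52, 3.98 and 12.8 CPM with Yoda1, lower without overlap as Cd74 was, and its part in the Cd74 difference was not tested. Of 5 B cell markers only Cd79b was in the table, at 23.6 to 39.8 CPM with DMSO and 22.8 to 31.6 CPM with Yoda1. Tested were 3 epithelial, 3 macrophage and monocyte, 2 dendritic cell and 1 B cell marker. Scgb1a1, Sftpc, Sftpd and Cdh1 were removed by the filter because too few libraries had enough counts, so they were not tested. Scgb1a1 had 9542 and 4169 counts in DMSO 2 and 3 and 0 or 1 in each other library. Of the tested markers edgeR called 0, against 0.57% of all tested genes higher and 0.923% lower. Before adjustment (p under 0.05) 1 was higher and 2 were lower, against 7.39% and 7.11%. Voom called 0. DESeq2, without that filter, called 1 macrophage marker higher and 4 epithelial markers lower, against 2.92% and 3.43% of the genes it tested. Genes of a list without a column are not analysed here.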

How the data were processed

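The authors deposited 1 table of expected counts, estimated reads per gene that need not be whole, for 6 libraries. Per the submitters' processing notes the build was mm10, and per the name of the deposited table it came from Partek. The sources used here do not give the aligner, counting method, strand setting or annotation. Between 57.1% and 66.5% of values per library were whole within 0.001. Counts were rounded and tested with edgeR 4.0.16 in R 4.3.3 (TMM; filterByExpr with minimum count 10 and minimum total 15; glmQLFit and glmQLFTest; Benjamini-Hochberg adjusted p under 0.05), in a fit over all 6 libraries without covariates. SE is the log2 change over the square root of F. The fit was tested on simulated data. CPM refer to counts of tested genes times the TMM factor. A member under 10 counts in more than 3 libraries is near the floor. Libraries of a group differed beyond sampling noise (chi-square over its degrees of freedom at least 19.27). GENCODE M21 (GRCm38, which is mm10) gave positions and lengths.

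Members and gene lists were chosen with earlier results of these data known. Genes named from a list are those past the threshold or, where none passed, up to 4 with the smallest p, and in marker lists also the 2 most abundant. For Cd74, H2-Aa, H2-Ab1 and H2-Eb1 the 3 nearest genes in profile are named, without pseudogenes, predicted genes and segments of receptors. Any other gene was named after its values were seen. Alternatives were DESeq2 1.42.0, limma 3.58.1 (voom), DESeq2 size factors, 2 other filters, the label suffix as a term, summed libraries, and each library left out. A comparison with DMSO 1 alone was added after seeing the data.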

Additional observations from a re-analysis of the deposited data

How the results depend on the processing

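Calls over all genes moved with the setting. Of 76 genes higher and 123 lower in edgeR, DESeq2 made 422 and 496, voom 121 and 179, no filter 50 and 83, and a filter of 10 CPM in 3 libraries 158 and 290. The label suffix as a term gave 2 and 1. This suffix was 0 for DMSO 1 and 2 only, so with that term the change is Yoda1 against DMSO 3 alone. The lost calls are then not those of a batch adjustment. Summing libraries with a shared label number gave 1 and 0 (edgeR, with 703 and 809 at an unadjusted p under 0.05). DMSO 1 alone against Yoda1, added after seeing the data, gave 0 and 0 (edgeR, with 452 and 416 at an unadjusted p under 0.05); its spread comes from the Yoda1 libraries. Leaving out 1 library gave 4 to 74 higher and 5 to 146 lower. DESeq2 size factors gave 75 and 122 and moved the median log2 change by 0.00.

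Cd74 kept its sign in all 14 alternatives, from -0.91 to -0.74, and was called in 1, DESeq2. H2-Aa kept its sign in 13 of 13, from -1.60 to -0.78, and H2-Ab1 in 14 of 14, from 0.04 to 0.35. The suffix term, summed libraries and DMSO 1 alone each ended the calls of Cd82, Irf4, Il10ra, Icos, Pdcd1 and Ddt. H2-Eb1 changed sign without DMSO 2 (0.0143; range over left-out libraries -0.51 to 0.01) and against DMSO 1 alone (0.29). Cd80 changed sign without DMSO 3 (range -0.95 to 0.37) and against DMSO 1 alone (0.18). The cause was not tested. Depth limited Ciita, Cd80, Cd86 and H2-DMb1, with 14 to 95 counts per group for Ciita and Cd80. No paired analysis was possible because the groups share no replicate number.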

Other observations

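Several scarce genes of the pathway had nearly all their counts in 1 or 2 libraries. Cd86 had 42 of its 44 counts in DMSO 2, and H2-Ob 21 of its 23. The dendritic cell and macrophage genes Itgax and Adgre1 had 52 and 53 counts in that library; Itgax had 68 in Yoda1 6, where Cd86 had 0, and Adgre1 had 18 in DMSO 3, where Cd86 had 1. H2-DMb1 and its near copy H2-DMb2 were highest in the same libraries, DMSO 3 with 7 and 14 counts and Yoda1 5 with 9 and 7. Cd40, a costimulatory receptor of antigen-presenting cells, had 26, 37 and 1 counts in the DMSO libraries against 61, 59 and 117 in the Yoda1 libraries, without overlap in CPM, short of the threshold (Benjamini-Hochberg adjusted p = 0.24 in edgeR). These genes were named after their values were seen.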
